A study of Mus musculus with 6 samples.

Results

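Ribosomal protein processed pseudogenes were examined in cDC1, the dendritic cells of the cross-presenting lineage, with and without deletion of c-Jun and JunB. They were selected on their summed reads, as the genes whose symbol starts with Rpl or Rps and contains -ps, and which held at least 20 reads summed over the 6 libraries. This gave 94 genes of 300 with such a symbol and of 54532 genes in all. Of the 94, the annotation classes 87 as processed pseudogenes, 3 as transcribed processed pseudogenes and 4 as protein-coding genes. They comprised 48 copies of large subunit (Rpl) and 46 of small subunit (Rps) genes, lay on 20 chromosomes and derived by their symbols from 45 parent genes. The sum of reads chose them, so that a copy could enter through libraries of 1 genotype alone. At the threshold, copies such as Rpl31-ps9, Rpl31-ps14, Rpl13-ps6 and Rpl30-ps10 entered with 20 reads, and Rpl21-ps10 and Rps12-ps26 stayed out with 19 and 17 reads.

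The cells were grown from bone marrow for 8 days with 80 ng/mL FLT3L, a cytokine that drives dendritic cell development, and sorted as CD24+ CD11c+ B220- CD115- CD172a- cells. Both groups of 3 libraries carried floxed c-Jun and JunB alleles. The 3 libraries labelled c-Jun/JunB fl/fl came without Cre (hereafter fl/fl 1 to 3). The other 3, labelled Δ/Δ (hereafter Δ/Δ 1 to 3), carried Cre (Itgax-Cre) under the Itgax (CD11c) promoter, which is active in CD11c-expressing cells. According to the methods, female and male mice aged 8 to 16 weeks on a mixed 129 Sv × C57BL/6 background were used, and the strain of origin of the pseudogene loci in each library was not tested. A legend to a plot of these libraries describes its points as individual mice, and the 3 libraries of a genotype were taken as separate mice.

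Ribosomal proteins are the protein part of the ribosome and are made in large amounts by every growing cell. Their abundant mRNAs are at times copied back into DNA and inserted elsewhere in the genome by the reverse transcriptase of LINE-1 elements. Such a processed pseudogene lacks introns, usually lacks the promoter of its parent gene, so that its transcription depends on the surroundings of the insertion. Because a young copy is nearly identical to the parent mRNA, short reads of copy and parent are hard to tell apart.

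The bases that differ between 3 copies and their parent genes are shown here, because these copies gave the only called differences between genotypes. Each sequence is read 5′ to 3′ from the GENCODE M21 transcripts on GRCm38, with the bases that differ between copy and parent in capitals. Positions are counted from 1 at the first base of the parent's start codon.
Rps13 coding 280 to 453: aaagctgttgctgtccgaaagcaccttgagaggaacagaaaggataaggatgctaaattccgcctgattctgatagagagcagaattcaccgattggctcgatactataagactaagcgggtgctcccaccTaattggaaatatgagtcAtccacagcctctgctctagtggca
Rps13-ps1 chr8:87047999-87048172 (+): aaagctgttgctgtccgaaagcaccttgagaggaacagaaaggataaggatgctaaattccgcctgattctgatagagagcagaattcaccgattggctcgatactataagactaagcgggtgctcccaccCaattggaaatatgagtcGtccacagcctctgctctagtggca
Rpl3 coding 12 to 101: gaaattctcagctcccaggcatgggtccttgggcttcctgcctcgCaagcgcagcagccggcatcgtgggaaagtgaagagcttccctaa
Rpl3-ps1 chrX:13202583-13202672 (+): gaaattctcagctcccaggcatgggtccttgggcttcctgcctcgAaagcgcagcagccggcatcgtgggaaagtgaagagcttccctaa
Rpl3 coding 741 to 830: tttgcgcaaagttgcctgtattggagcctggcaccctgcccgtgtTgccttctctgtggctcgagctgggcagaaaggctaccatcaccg
Rpl3-ps1 chrX:13203312-13203401 (+): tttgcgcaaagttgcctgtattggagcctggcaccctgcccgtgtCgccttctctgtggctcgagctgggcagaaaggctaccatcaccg
Rps19 coding 144 to 293: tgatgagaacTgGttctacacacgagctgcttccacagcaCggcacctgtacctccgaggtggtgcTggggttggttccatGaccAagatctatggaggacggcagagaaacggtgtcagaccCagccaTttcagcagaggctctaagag
Rps19-ps3 chr4:147821922-147822071 (-): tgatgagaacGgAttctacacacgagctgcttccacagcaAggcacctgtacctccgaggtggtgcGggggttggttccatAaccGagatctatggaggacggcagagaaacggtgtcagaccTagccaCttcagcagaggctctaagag

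Rps13-ps1 (ENSMUSG00000066362.5, chr8:87047689-87048226, plus strand) carried 2 differences over 522 aligned bases, T411C and A429G, an identity of 99.6% to Rps13. Rpl3-ps1 (ENSMUSG00000084349.3, chrX:13202571-13203780, plus strand) carried 2 as well, C57A and T786C, an identity of 99.8% to Rpl3. All 4 were silent third-position changes, and both copies kept the reading frame of the parent open. Rps19-ps3 (ENSMUSG00000080059.4, chr4:147821777-147822202, minus strand) was the more diverged copy. It carried 14 base differences, from T154G to G403T, of which 8 were silent, and 6 gap bases. Its frame was not open, and its identity to Rps19, with the gaps counted, was 95.4%.

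**Figure D1:**
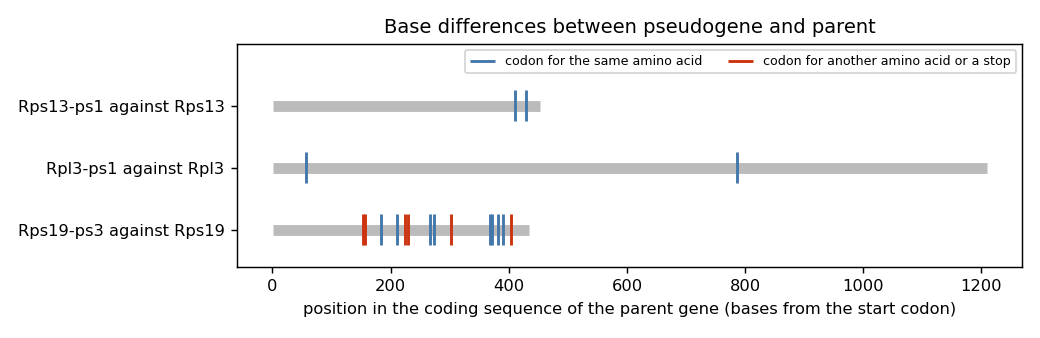
Positions of base differences along the coding sequence of the parent gene, in bases from the start codon (x axis), for the 3 called pseudogenes. Blue ticks leave the amino acid unchanged and red ticks change it or give a stop codon. Rps13-ps1 and Rpl3-ps1 carry 2 ticks each, all blue, and Rps19-ps3 carries 14. The 6 gap bases of Rps19-ps3 are not drawn.

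The share of sequence that no other annotated transcript holds varied among copies. Taken in windows of 75 bases, the length of 1 read of a pair, 84 of the 464 windows in Rps13-ps1 (18.1%) occurred in no other annotated transcript. In Rpl3-ps1, 58 of 1136 windows (5.11%) did so, and in Rps19-ps3, 278 of 352 (79.0%). Over the 94 copies the median share was 41.9%, with a range from 0 to 100%, and 14 copies had no window of their own. Median identity to the parent was 98.9% (87.1 to 100%), and 11 copies were identical to the parent over their whole aligned length. The best-matching coding gene was the named parent for 92 copies. The frame of the parent was open in 59 of the 94. Sequence outside the annotated interval, and loci that are not annotated, were not searched, because no genome sequence was used.

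Among the 94, copies close to their parent held more reads. Spearman's rho between identity and summed reads was 0.42 over the 94 copies, and that between the share of windows of their own and summed reads was −0.33. Both are descriptions, over copies that share libraries, parent genes and base composition. The 94 were themselves chosen on summed reads. The 206 copies under 20 reads are absent from these values, so the relation over the whole family was not tested. The 11 identical copies had a median of 702 reads (103 to 4629) and the other copies a median of 93 reads. Between the level of the parent gene and summed reads, rho over the same 94 was −0.096. Reads of identical copies cannot be told from parent reads by the sequence of the interval, so that their assignment is uncertain.

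**Figure D2:**
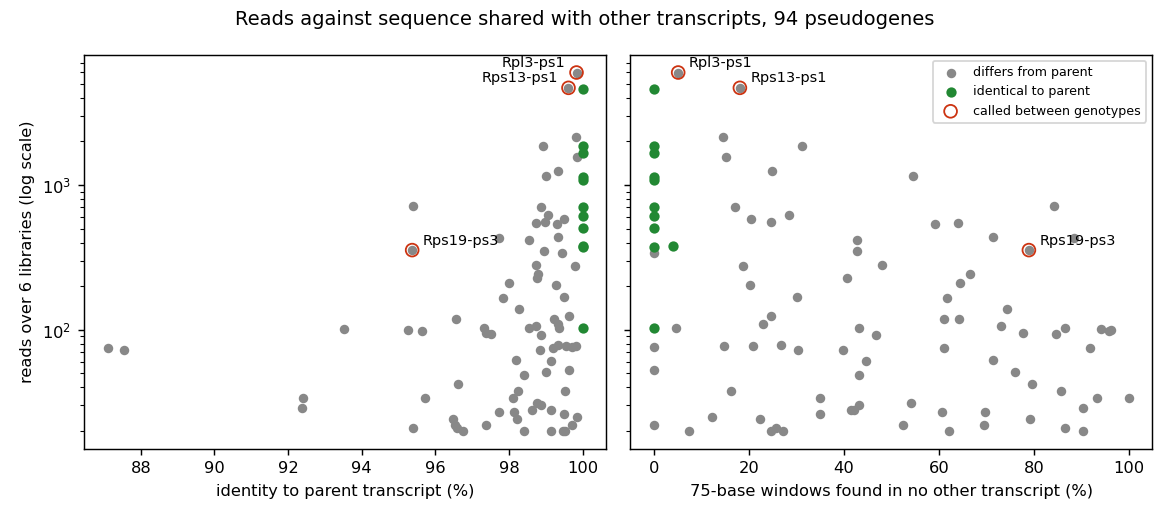
Reads summed over 6 libraries (y axis, log scale) against identity to the parent transcript (left) and against the share of 75-base windows found in no other annotated transcript (right). Points are the 94 pseudogenes, the 11 identical to their parent in green and the 3 called ones circled. Reads are higher towards full identity, and Rps13-ps1 and Rpl3-ps1 stand at the top with few windows of their own.

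The libraries held 21693217 to 26788296 reads on genes. The 94 copies took 43318 of these reads in all, with a median of 103 per copy and a highest sum of 5991. Their share was 0.0219 to 0.0242% of a library's reads in the fl/fl and 0.0367 to 0.0383% in the Δ/Δ libraries. Without Rps13-ps1 and Rpl3-ps1, which held 24.7% of all these reads, the shares were 0.0209 to 0.0233% and 0.0220 to 0.0238%, ranges that overlap. The shares of the 2 genotypes were thus separated by these 2 genes.

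Levels are in CPM, the count scaled to library size with TMM factors. The limit that a count of 0 allows is 3 reads in a library. Without TMM factors this limit amounts to 0.112 to 0.138 CPM, which covers counting error only. A copy was taken as on in a library with 10 or more reads and as off with none. Of the 94 copies, 87 had reads in all 6 libraries, 52 were on in all 6, and 23 reached 10 reads in no library. At least 1 library without a read was found for 7 copies, namely Rpl5-ps2, Rpl13-ps1, Rps19-ps4, Rps15a-ps3, Rps2-ps6, Rpl35a-ps4 and Rps19-ps7. Only Rps19-ps7 was on in 1 library and off in another. It had 10, 0 and 1 reads in fl/fl and 6, 4 and 0 in Δ/Δ libraries, so that each genotype had both reads and a library without any, at a depth that cannot show a difference. No copy was off in all libraries of a genotype. On in all libraries of 1 genotype and in none of the other were Rps13-ps1, in Δ/Δ, and Rpl3-ps2, in fl/fl. With 5 reads as the limit for on, neither kept this pattern, since Rps13-ps1 had 5 reads in fl/fl 2 and Rpl3-ps2 had 6 to 8 in Δ/Δ libraries.

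**Figure D3:**
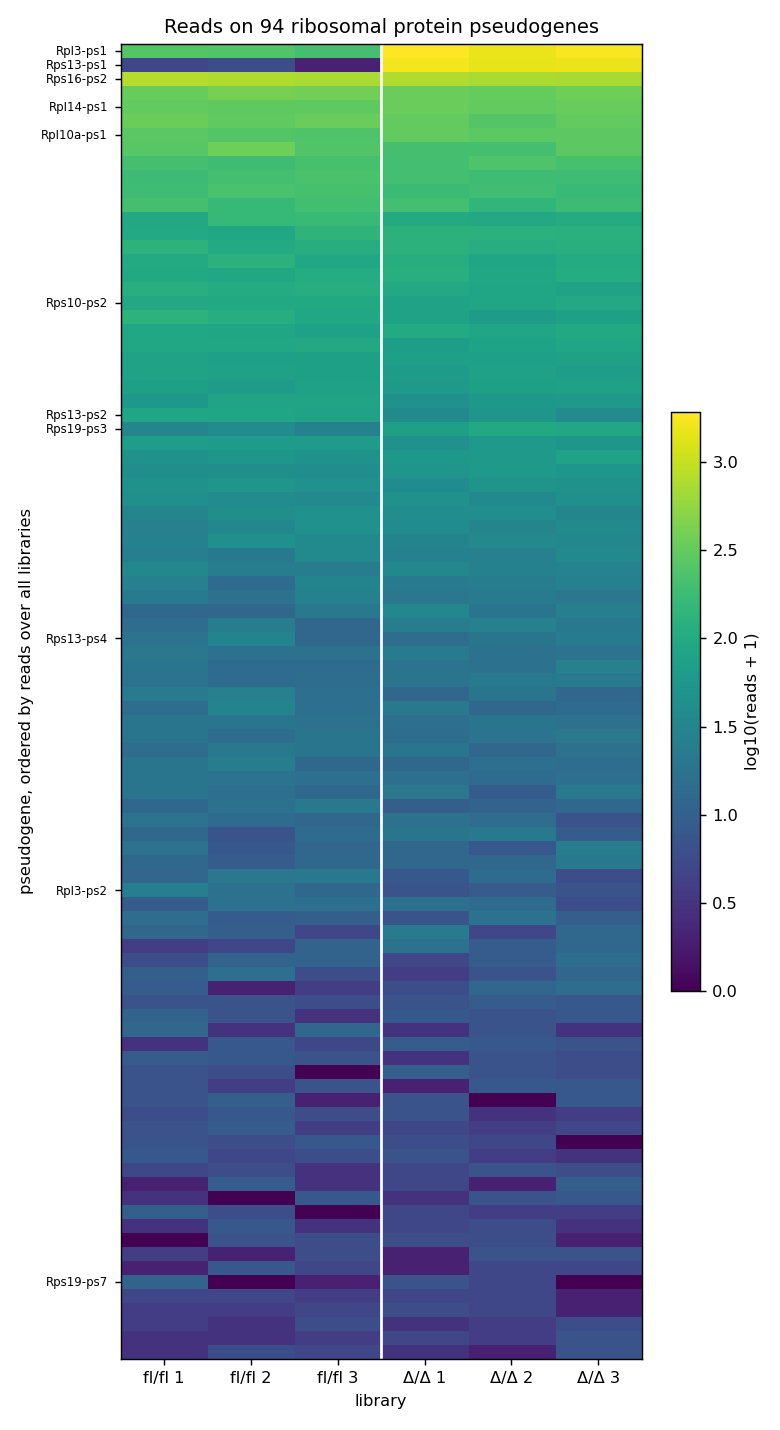
Reads on each of the 94 pseudogenes (rows, ordered by summed reads) in the 6 libraries (columns), coloured by log10(reads + 1), with the white line between fl/fl and Δ/Δ and with names given only for copies whose values the text describes by library. Rps13-ps1, in the second row, changes from 1 to 5 reads on the left to 1477 to 1682 on the right, and Rpl3-ps1, in the first row, from 209 to 252 to 1552 to 1931.

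To ask whether the copies differed between genotypes, the counts of all genes entered 1 quasi-likelihood fit in edgeR. A call needed a Benjamini-Hochberg adjusted p under 0.05 together with a log2 fold change of 1 or more in either direction. Of 12894 genes tested, 1.86% were called, 0.993% higher and 0.869% lower in Δ/Δ. Of the 94 copies, 64 passed the filter on low counts and 3 of these were called, Rps13-ps1, Rpl3-ps1 and Rps19-ps3, all higher in Δ/Δ. None was called lower, by edgeR, DESeq2 or limma-voom. At an unadjusted p under 0.05 in edgeR, 8 of the 64 passed, 3 of them lower in Δ/Δ (19.4% of all genes tested passed), and the genotypes did not overlap in 14 of the 64 (26.0% of all genes tested). The median log2 fold change of the 64 was 0.09, that of all genes 0.0018, and 48 of the 64 lay within 0.5 of 0 in either direction. Of 388 processed pseudogenes tested that were not among these copies, 22 were called higher and none lower by edgeR, with a median log2 fold change of 0.12. DESeq2 called 29 higher and 3 lower, and 68 of the 388 had an unadjusted p under 0.05, 17 of them lower.

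The 30 copies left out by the filter had at most 62 reads in all and at most 16 in 1 library. When all genes with 20 reads in total were tested, all 94 entered. The same 3 were called, against 1.59% of 15120 genes, and the genotypes did not overlap in 17 of the 94, of which 14 were higher and 3 lower in Δ/Δ (24.2% of these genes did not overlap). Among the 30, the smallest p was 0.107 and the smallest adjusted p 0.391.

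**Figure D4:**
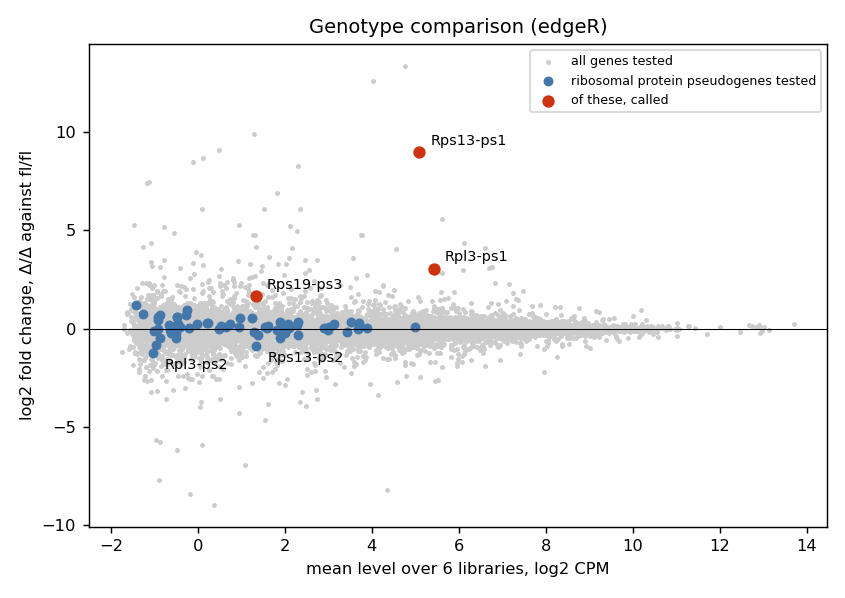
Log2 fold change of Δ/Δ against fl/fl by edgeR (y axis) against the mean level in log2 CPM (x axis) for 12894 genes tested (grey) and the 64 pseudogenes among them (blue, the 3 called in red). Most pseudogenes lie near 0, Rps13-ps1 and Rpl3-ps1 lie far above, and Rps13-ps2 and Rpl3-ps2 lie on the lower side.

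Rps13-ps1 showed the largest change of the 64. Its parent encodes RPS13, a protein of the small subunit. The copy had 4, 5 and 1 reads in fl/fl 1, 2 and 3 (0.154, 0.185 and 0.0424 CPM) and 1682, 1477 and 1526 reads in Δ/Δ 1, 2 and 3 (68.2, 68.9 and 67.2 CPM). The fl/fl libraries lay near the limit of detection and the Δ/Δ libraries close to each other. From 10 reads against 4685, the ratio of levels was 521, with a 95% counting interval (exact binomial) from 283 to 1087. edgeR's log2 fold change was 8.97 (SE 0.22, adjusted p = 1.03e-05). Each SE, here and below, is the absolute log2 fold change divided by the square root of the F value of edgeR's test. It is derived from that test, and for this copy it is smaller than the counting interval implies. The interval is thus the better measure of the uncertainty from 10 reads.

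Rps13 itself (chr7:116331505-116334195) had 556, 541 and 585 CPM in fl/fl libraries, against 465, 460 and 496 CPM in Δ/Δ ones. The genotypes did not overlap, but the log2 fold change of −0.24 (SE 0.06) did not pass the test (adjusted p = 0.0705 by edgeR and 0.0101 by DESeq2). The mean level of Rps13 was 86.9 CPM lower and the summed level of its copies 66.6 CPM higher in Δ/Δ. When the reads of all Rps13 copies were added to Rps13 before the fit, a setting chosen after seeing the data, the log2 fold change was −0.054 (SE 0.06, adjusted p = 0.645 by edgeR). Reads on the copy were 0.0277, 0.0343 and 0.00725% of the reads on Rps13 in fl/fl and 14.7, 14.98 and 13.5% in Δ/Δ libraries. The log2 ratio of copy to parent went from −12.06 ± 0.97 (SD, n = 3) to −2.80 ± 0.077, with the smallest p that 3 against 3 libraries allow in a two-sided exact permutation test, 0.1.

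Rpl3-ps1, a copy of the gene for a large subunit protein close to the peptidyl transferase centre, already held reads in fl/fl. It had 252, 244 and 209 reads in fl/fl (9.72, 9.05 and 8.87 CPM) and 1931, 1552 and 1803 reads in Δ/Δ libraries (78.3, 72.4 and 79.4 CPM). The 2 groups were far apart, with little spread within each. The log2 fold change was 3.06 (SE 0.08, adjusted p = 1.03e-05 by edgeR). How many of the reads on this copy came from Rpl3 was not tested.

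Rpl3 (chr15:80077791-80091868) had 1307, 1231 and 1303 CPM in fl/fl libraries, against 1023, 957 and 1060 CPM in Δ/Δ ones. It fell by 0.34 on the log2 scale (SE 0.06, adjusted p = 0.0276 by edgeR), a change below the limit of a call. This p was 0.155, 0.103 and 0.118 without fl/fl 1, 2 and 3. Rpl3 was 267 CPM lower and its copies together 67.1 CPM higher in Δ/Δ, and with the copies added the log2 fold change was −0.24 (SE 0.06, adjusted p = 0.0747 by edgeR). The copy had 0.743, 0.735 and 0.680% of the reads of its parent in fl/fl and 7.66, 7.57 and 7.49% in Δ/Δ libraries. The log2 ratio went from −7.12 ± 0.069 to −3.72 ± 0.016 (SD, n = 3; exact permutation p = 0.1, the smallest possible).

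Rps19-ps3 was lower in level and less firmly called. Its parent encodes a small subunit protein that is mutated in Diamond-Blackfan anaemia. The copy had 30, 37 and 27 reads in fl/fl (1.16, 1.37 and 1.15 CPM) and 72, 97 and 92 reads in Δ/Δ libraries (2.92, 4.53 and 4.05 CPM). All Δ/Δ libraries lay above all fl/fl libraries. The log2 fold change was 1.64 (SE 0.26, adjusted p = 0.0202 by edgeR). The adjusted p was 0.119, 0.0992 and 0.0834 without fl/fl 1, 2 and 3 and 0.0555 without Δ/Δ 3, with a log2 fold change of 1.502 to 1.804 when any library was left out.

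Rps19 (chr7:24884371-24889806) had 685, 551 and 655 CPM in fl/fl libraries, against 604, 572 and 605 CPM in Δ/Δ ones, and the genotypes overlapped (log2 fold change −0.086, SE 0.09, adjusted p = 0.631 by edgeR). The copy had 0.169, 0.249 and 0.175% of the reads of Rps19 in fl/fl and 0.484, 0.791 and 0.670% in Δ/Δ libraries. The log2 ratio went from −8.98 ± 0.31 to −7.29 ± 0.36 (SD, n = 3; exact permutation p = 0.1, the smallest possible).

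**Figure D5:**
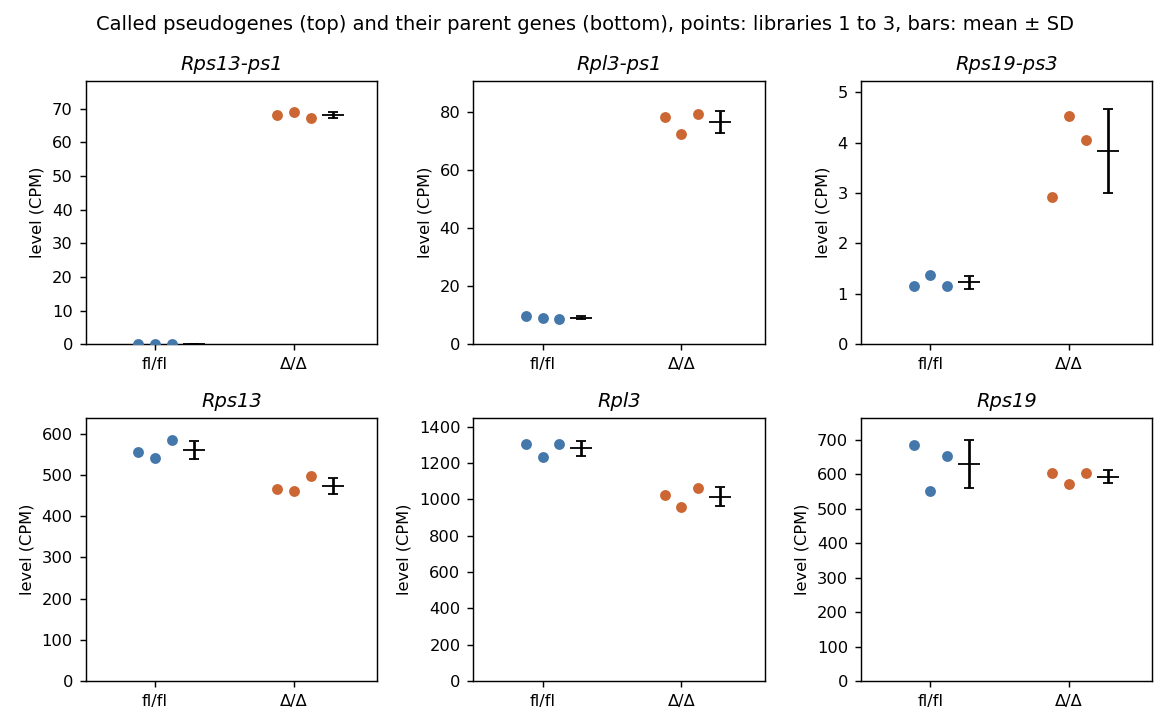
Levels in CPM of the called pseudogenes (top) and of their parent genes (bottom) in the 3 fl/fl (blue) and 3 Δ/Δ (orange) libraries, with the mean and SD as black bars and axes from 0. The pseudogenes are higher in all Δ/Δ libraries, Rps13 and Rpl3 are lower in all Δ/Δ libraries, and Rps19 overlaps between genotypes.

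Other copies of the same parents were not called, and were picked for description after their values had been seen. Rps13-ps2 (chr7:88530446-88530898, minus strand) is identical to Rps13 over its 453 bases. It had 85, 88 and 77 reads in fl/fl (3.28, 3.26 and 3.27 CPM) and 36, 50 and 37 in Δ/Δ libraries (1.46, 2.33 and 1.63 CPM). The groups did not overlap, with a log2 fold change of −0.86 (SE 0.25) that did not pass the test (adjusted p = 0.121 by edgeR). Its log2 ratio to Rps13 was −7.41 ± 0.057 in fl/fl and −8.04 ± 0.38 in Δ/Δ (SD, n = 3; exact permutation p = 0.1, the smallest possible). Rps13-ps4 had 17, 29 and 11 reads in fl/fl and 14, 18 and 21 in Δ/Δ libraries, which overlapped.

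Rpl3-ps2 (chrX:74170653-74171866, plus strand), with 10 base differences from Rpl3, had 25, 16 and 12 reads in fl/fl and 6, 8 and 6 in Δ/Δ libraries. All Δ/Δ libraries were lower, with a log2 fold change of −1.23 (SE 0.43) that did not pass the test (adjusted p = 0.185 by edgeR). Its ratio to Rpl3 gave an exact permutation p of 0.2. Of the other Rps19 copies, Rps19-ps6 had 134, 102 and 110 reads in fl/fl and 129, 109 and 117 in Δ/Δ libraries (log2 fold change 0.18, adjusted p = 0.615 by edgeR), and Rps19-ps4 had 6, 5 and 7 against 5, 4 and 0 reads and was too low to be tested. Both overlapped between genotypes. All Rps19 copies together, with those under 20 reads, were 3.14 CPM higher in Δ/Δ.

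The abundant copies outside the called ones were near-constant. Rps16-ps2, identical to Rps16 and with no window of its own, had the highest mean level per length of the 94 copies, at 72.5 CPM per kb over all 6 libraries. This order held in fl/fl, with 70.5 CPM per kb for Rps16-ps2 and 0.237 for Rps13-ps1, and turned in Δ/Δ, with 74.5 against 127 CPM per kb. It had 32.4, 29.3 and 31.6 CPM in fl/fl libraries, against 31.9, 34.9 and 31.7 CPM in Δ/Δ ones. The genotypes overlapped, with a log2 fold change of 0.08 (SE 0.08, adjusted p = 0.640 by edgeR). Next in level among the uncalled copies came Rpl19-ps11, Rpl14-ps1, Rps23-ps1, Rpl10a-ps1 and Rpl9-ps6, with means over the 6 libraries from 10.8 to 14.8 CPM. Their log2 fold changes ran from −0.16 to 0.33 and none passed the test. Rpl10a-ps1 and Rpl14-ps1 were higher in all Δ/Δ libraries. Rpl10a-ps1 had 10.8, 9.53 and 10.3 CPM in fl/fl libraries, against 12.9, 13.2 and 12.6 CPM in Δ/Δ ones (log2 fold change 0.33, SE 0.11, adjusted p = 0.164 by edgeR). Rpl14-ps1 had 12.2, 10.8 and 12.4 CPM against 13.7, 14.4 and 14.4 CPM (log2 fold change 0.27, SE 0.11, adjusted p = 0.250 by edgeR). Their parents Rpl10a and Rpl14 had log2 fold changes of −0.073 and 0.06, which did not pass the test either (adjusted p = 0.529 and 0.542 by edgeR).

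Against the parent gene, most copies were minor. Reads on a copy were a median of 0.103% of the reads on its parent over all libraries, and 15 of the 94 reached 1%. Both Rps10 copies stood out on this measure, with 82.9% for Rps10-ps2 and 36.2% for Rps10-ps1. Here the parent count was low, at a mean of 4.62 CPM for Rps10 over the 6 libraries. Rps10-ps2 had 3.63, 3.67 and 4.20 CPM in fl/fl libraries, against 3.16, 4.11 and 4.14 CPM in Δ/Δ ones, which overlapped.

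The parent genes as a list moved little. Of the 45 parents, all were tested and none was called by edgeR, DESeq2 or limma-voom. By edgeR 1 (Rpl3) had an adjusted p under 0.05, against 3.88% of all genes tested. At an unadjusted p under 0.05 in edgeR, 6 of the 45 passed (13.3%), all lower, a share below the 19.4% of all genes tested. Of the 2496 genes in that 19.4%, 1169 were lower. Their log2 fold changes ran from −0.35 to 0.20 with a median of −0.055, and 13 were higher in Δ/Δ. Of 85 cytosolic ribosomal protein genes, 82 were tested and none was called, with a median log2 fold change of −0.037. By edgeR, Rpl3 was again the only one under an adjusted p of 0.05. At an unadjusted p under 0.05 in edgeR, 8 of the 82 passed (9.76%), also below the 19.4% of all genes tested.

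Some copies lay inside other genes, and a copy on the same strand shares the unspliced RNA of its host. Of the 94 copies, 58 overlapped no other annotated gene, 12 lay in introns of a coding gene on the same strand and none in a coding exon on the same strand, while 3 overlapped an exon on the other strand. None of the 3 called copies overlapped another gene. Of the 12 host genes, Ddah1, the host of Rpl36a-ps2, and Gm20388, the host of Rps12-ps9, had no reads, and none of the other 10 had an adjusted p under 0.05 by edgeR (0.125 to 0.771).

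The neighbourhood differed among the called copies. Of 11 genes tested within 1 Mb of Rpl3-ps1 and of 4 within 1 Mb of Rps13-ps1, none was called by edgeR or DESeq2 and 1 of each set had an unadjusted p under 0.05. Within 1 Mb of Rps19-ps3, 4 of 27 genes tested were called by edgeR, all higher in Δ/Δ, and 5 by DESeq2, beside the 0.993% called higher by edgeR among all genes. An unadjusted p under 0.05 was found for 16 of the 27, beside 19.4% of all genes tested. The called genes included the zinc finger gene Zfp985 (0.119 ± 0.0703 CPM in fl/fl and 1.83 ± 0.214 in Δ/Δ; SD, n = 3), Gm21411 (no reads and 0.911 ± 0.227) and Angptl7 (no reads and 2.80 ± 0.808), which encodes a secreted angiopoietin-like protein. Rps13-ps1 lay 2.07 Mb from Junb on the same chromosome and Rps19-ps3 52.8 Mb from Jun.

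As a check of the labels, the level of Junb was 334 ± 71.5 CPM in fl/fl libraries, against 164 ± 50.9 CPM in Δ/Δ ones (SD, n = 3), without overlap (log2 fold change −1.02, adjusted p = 0.0729 by edgeR), and Jun 62.2 ± 9.26 and 51.0 ± 8.46 CPM, with overlap (−0.29, adjusted p = 0.345). The RNA of Jun thus did not separate the genotypes, and which bases the deletion removes is not given in these sources. The paper reports deletion of c-Jun and JunB by quantitative RT-PCR in cDC1 sorted from spleen and lymph nodes, not in these libraries. Itgax fell by 1.22 on the log2 scale (adjusted p = 0.0147 by edgeR). The summed level of 12 cDC1 markers was 11602 to 11845 CPM in fl/fl and 9416 to 11450 CPM in Δ/Δ, and 2 of them were called lower. Xcr1 (421 to 475 and 122 to 201 CPM), Tlr3, Cd24a, Wdfy4 and Itgax were lower in all Δ/Δ libraries. Cadm1 was higher in all of them (213 to 231 and 266 to 305 CPM), and the remaining cDC1 markers overlapped between genotypes. The 7 cDC2 markers summed to 126 to 205 and 329 to 457 CPM, with 2 called higher. Cd209a (39.1 to 69.2 and 196 to 268 CPM), Irf4, Itgam, Clec4a4 and Cd4 were higher in all Δ/Δ libraries. Sirpa, the gene for CD172a (44.7 to 60.5 and 40.9 to 46.8 CPM), and Mgl2 overlapped between genotypes. The 6 pDC markers summed to 1165 to 1236 and 1349 to 1553 CPM, with 1 called higher. Most of the pDC sum was Ptprc, which encodes CD45 of all leukocytes, and without it the other 5 summed to 223 to 239 and 244 to 293 CPM. These 5 went different ways. Siglech (7.79 to 10.8 and 16.5 to 37.5 CPM) and Ccr9 (20.8 to 24.0 and 52.0 to 69.9 CPM) were higher in all Δ/Δ libraries. Bst2 was lower in all of them (89.1 to 109 and 70.5 to 79.0 CPM), and Tcf4 and Spib overlapped between genotypes. B cell markers summed to 17.2 to 27.5 and 11.2 to 40.6 CPM, monocyte and macrophage markers to 30.4 to 40.0 and 47.7 to 67.9 CPM, neutrophil markers to 3.74 to 12.4 and 0.852 to 6.999 CPM, and basophil and mast cell markers to 0.347 to 0.927 and 0.609 to 11.2 CPM. T and NK cell markers summed to at most 0.617 CPM and erythroid markers to at most 0.187 CPM in any library, and Elane, Ly6g and Hba-a1 had no reads. The part of other cells in the levels of the pseudogenes was not tested, and in these bulk samples a change in cell make-up and a change in RNA per cell cannot be told apart.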

How the data were processed

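RNA of 6 libraries (3 fl/fl, 3 Δ/Δ, grouped by title) was analysed. The authors made poly(A) strand-specific libraries, aligned 75-base paired reads to mm10 with STAR 2.6.1a and Gencode vM19 and deposited raw counts of uniquely mapped reads per gene, without normalization or pooling. How reads were divided between near-identical copies was not tested. The strand column they took was not given in the sources used here.

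Names, classes and sequences were taken from GENCODE M21 (37 of 54532 identifiers not found). Parents were named by symbol and aligned with BLAST+ 2.17.0. Counts were tested with edgeR 4.0.16 in R 4.3.3 (TMM, filterByExpr with minimum count 10 and total 15, glmQLFTest on genotype, Benjamini-Hochberg adjustment over 12894 genes). Member-to-parent ratios used 0.5 added reads and two-sided exact permutation tests in Python 3.11.15. Only reads on genes (79.1 to 79.7% of all reads) entered library sizes and fits. Alternatives were DESeq2 size factors, DESeq2 1.42.0, limma-voom (limma 3.58.1), other filters, each library left out, a replicate term and other limits for on, off and calls.

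Pseudogenes and lists were chosen with earlier results of these data known. Named are called copies, the 8 highest by mean CPM, copies with on or off patterns, their parents, same-strand hosts and called neighbours, and copies at the threshold of 20 reads; others are said to be picked by value, and some results under this rule are not reported here. All pairs of libraries of the same genotype differed by more than sampling noise.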

Additional observations from a re-analysis of the deposited data

How the results depend on the processing

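The count of 3 pseudogenes called higher and 0 called lower was the same with DESeq2 size factors, DESeq2's Wald test, limma-voom, no filter, a filter of 20 reads or of 1 CPM, an adjusted p alone, and copies of 50 reads. It was 2 without fl/fl 1, 2 or 3 or without Δ/Δ 3, where Rps19-ps3 lost its call. Over all alternatives Rps13-ps1 kept a log2 fold change of 8.60 to 9.32 and Rpl3-ps1 of 3.03 to 3.10. Replicate numbers did not pair the libraries (correlations of deviations 0.091, −0.15 and 0.20), and with a replicate block 3 were called higher and 0 lower. Counts of on and off patterns depended on the limits. Copies on in 1 library and off in another were 1, and 7 with on at 5 reads, 5 with off at 2 reads and 0 among copies of 50 reads. Copies off in a library were 7, and 26 with off at 2 reads and 0 among copies of 50 reads. Copies on in no library were 23, and 1 with on at 5 reads and 0 among copies of 50 reads, and those on in 1 genotype only were 2, and 0 with on at 5 reads. Of 18 uncalled copies and parents followed, 5 changed sign, with reversed values of at most 0.078 in absolute size on the log2 scale. Rps23 (−0.00036) gave 0.0026 with DESeq2 size factors, 0.0026 by DESeq2 and 0.00056 at 1 CPM. With a library left out, Rps23 ran from −0.072 to 0.050, Rpl19-ps11 from −0.072 to 0.11, Rps23-ps1 from −0.14 to 0.052, Rpl9 from −0.078 to 0.067 and Rps16 from −0.10 to 0.028. The cause was not tested. Depth limits the 23 copies that reach 10 reads in no library.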
